A study of Mus musculus with 42 samples.

Results

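Transcripts of 8 Toll-like receptors (Tlr1, Tlr2, Tlr3, Tlr4, Tlr5, Tlr7, Tlr8 and Tlr13) and of the endotoxin co-receptors Cd14 and Ly96 were followed in mouse liver. The 10 genes were taken by symbol, mapped from the Ensembl identifiers, from the 54446 genes of the count table. Liver RNA was sequenced in bulk from 42 female APOE*3-Leiden mice, which carry a human APOE variant that makes their plasma lipids respond to diet and to statins, with 1 library per mouse. The 10 mice of the chow group stayed on a maintenance diet. The 16 mice of the WTD group received a Western-type diet with 15% cocoa butter, 40.5% sucrose and 1% cholesterol, with 0.05% sodium cholate added from week 22. The 16 mice of the WTD + atorvastatin group received the same diet with the statin, at 3.0 mg/kg/day and from week 5 at 4.5 mg/kg/day, and all livers were taken at week 32. The mice of both WTD-fed groups were 8 to 14 weeks old when a run-in of 3 weeks on the diet began. The age of the chow mice was not given in the sources used here.

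Toll-like receptors recognise conserved parts of microbes and of damaged cells, some at the cell surface and others inside endosomes, and they signal through adaptors to NF-kappaB and interferon regulatory factors. Tlr4 detects endotoxin together with Ly96, which encodes MD-2, the protein that binds the lipid, and with Cd14, which hands endotoxin over to the complex. In liver these genes are known from macrophages and other immune cells, and several are also used by hepatocytes and endothelial cells.

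Gene counts per mouse ran from 15661381 to 36224054. In 9 libraries (3 chow, 5 WTD and 1 WTD + atorvastatin) more than 20% of the genes expected at 1 to 2 CPM (counts scaled to a library of 1e6) had no count. The share was 57.3% in chow mouse 2 and 43.1% in chow mouse 5. These mice had 0 counts for several of the 10 genes, as given below, and the counts of receptors below were repeated without the 9 libraries. For the labelled tissue, the 6 hepatocyte markers summed to at least 49581 CPM in every mouse.

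Promoter sequences are shown for 4 receptors whose transcripts rose on the WTD. After removal of the group means the 21 pairs among the 7 genes that rose had a median r of 0.102 (from -0.390 to 0.863), or 0.226 without the 9 libraries (from -0.232 to 0.579). The sequences are RefSeq windows of GRCm38.p6 from 250 bases before to 50 bases after an annotated start, printed 5′ to 3′ on the gene's strand, and capitals mark the purine-rich box GAGGAA or its reverse complement, letters that the myeloid factor PU.1 is known to bind.

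Tlr1 (chr5:64933509-64933808, minus strand): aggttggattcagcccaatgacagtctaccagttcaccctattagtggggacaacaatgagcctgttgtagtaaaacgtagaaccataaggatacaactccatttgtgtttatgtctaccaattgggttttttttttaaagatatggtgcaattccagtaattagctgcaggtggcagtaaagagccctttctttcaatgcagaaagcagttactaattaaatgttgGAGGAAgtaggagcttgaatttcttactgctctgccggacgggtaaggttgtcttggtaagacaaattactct

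Tlr2 (chr3:83841559-83841858, minus strand): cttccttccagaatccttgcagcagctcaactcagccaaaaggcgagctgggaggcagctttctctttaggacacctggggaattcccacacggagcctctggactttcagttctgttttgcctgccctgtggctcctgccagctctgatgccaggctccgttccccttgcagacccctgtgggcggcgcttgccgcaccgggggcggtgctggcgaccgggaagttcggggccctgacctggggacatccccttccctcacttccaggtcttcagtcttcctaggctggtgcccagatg

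Tlr8 (chrX:167264280-167264579, minus strand): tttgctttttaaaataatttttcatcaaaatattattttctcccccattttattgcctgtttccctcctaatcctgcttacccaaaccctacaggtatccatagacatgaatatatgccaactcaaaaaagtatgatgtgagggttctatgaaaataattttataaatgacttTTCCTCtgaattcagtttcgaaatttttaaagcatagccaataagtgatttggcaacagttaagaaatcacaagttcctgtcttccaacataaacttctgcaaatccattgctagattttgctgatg

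Tlr13 (chrX:106143025-106143324, plus strand): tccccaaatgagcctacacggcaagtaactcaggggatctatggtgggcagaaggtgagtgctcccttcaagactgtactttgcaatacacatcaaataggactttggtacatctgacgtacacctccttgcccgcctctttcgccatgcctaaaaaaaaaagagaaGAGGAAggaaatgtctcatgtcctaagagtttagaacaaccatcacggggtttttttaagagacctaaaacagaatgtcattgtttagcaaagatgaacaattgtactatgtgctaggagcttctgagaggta

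Windows were found for 6 of the 10 genes, with 7 windows in all because Tlr1 has more than 1 annotated start. The GAGGAA box was present on either strand in 3 of the 7 windows, those of Tlr1, Tlr8 and Tlr13 shown above, and in 28.3% of 32851 promoter windows of the same length. It began 23 bases before the start in Tlr1, 77 bases before it in Tlr8 and 83 bases before it in Tlr13. No box was in the other window of Tlr1 (chr5:64932650-64932949, not shown) or in the windows of Tlr2, Tlr3 or Tlr5. The TATA box TATAAA was in the window of Tlr8 alone and in 13.6% of all windows. These are matches of letters, and binding was not measured.

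The first comparison asked how the WTD changed the receptors relative to chow. Of the 10 genes, 7 rose on the WTD (Tlr1, Tlr2, Tlr4, Tlr7, Tlr8, Tlr13 and Cd14) and 0 fell, at an adjusted p under 0.01 in the quasi-likelihood test of edgeR. The background was 17.5% of 15574 tested genes called higher and 16% called lower. The fold changes of the genes that rose ran from 3.77 for Tlr1 to 8.53 for Tlr13, whereas Tlr3, Tlr5 and Ly96 did not pass. The median log2 fold change of the 10 genes was 2.29, and that of all tested genes was 0.03. Without the 9 libraries 7 were again called, against 3067 of 15799 tested genes called higher and 2806 called lower. Since whole liver was sequenced, more cells that carry a receptor and more RNA per cell cannot be told apart. The summed level of 6 macrophage markers ran from 130 to 189 CPM on chow and from 395 to 705 CPM on the WTD, its part in the rise was not tested, and each gene is set against it below. All 6 of these markers rose on the WTD, as did 3 of 6 Kupffer cell markers, 2 of 5 monocyte markers, 2 of 4 tested neutrophil markers, 1 of 6 dendritic cell markers, 3 of 6 stellate cell markers and 5 of 5 cholangiocyte markers. Of 6 markers of sinusoidal endothelium 1 rose and 3 fell, and 6 of 6 hepatocyte markers fell. Of 5 B cell markers 0 were called, and of 6 T cell markers 0.

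**Figure D1:**
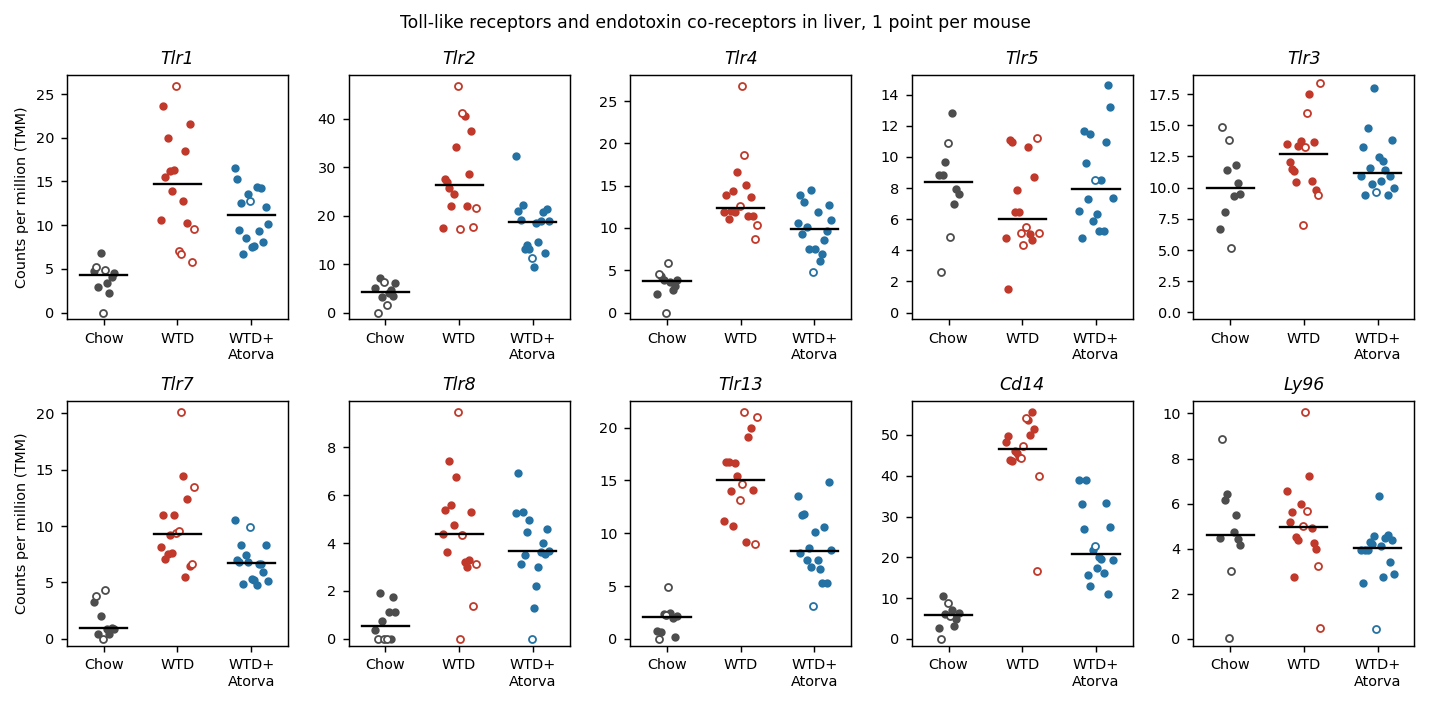
CPM with TMM scaling (y axis) in each mouse of the chow, WTD and WTD + atorvastatin groups (x axis) for the 10 genes. Bars are medians and open points are the 9 libraries in which more than 20% of weak genes had no count. The WTD points of Cd14 lie above all chow points, while those of Tlr3, Tlr5 and Ly96 overlap with chow.

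Among the cell-surface receptors, Tlr2 responds to bacterial lipoproteins as a dimer with Tlr1 or Tlr6. Tlr2 (ENSMUSG00000027995, chr3:83836272-83841767) had a lowest, median and highest level of 0, 4.28 and 7.09 CPM on chow, and of 17.2, 26.3 and 46.8 CPM on the WTD. The groups did not overlap, and the level of 0 was in chow mouse 2. Its fold change was 6.79 (log2 2.76, SE 0.29, edgeR adjusted p = 9.9e-11).

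Tlr1 (ENSMUSG00000044827, chr5:64924679-64933563), the partner of Tlr2 for triacylated lipoproteins, measured 0, 4.29 and 6.78 CPM (lowest, median and highest) on chow and 5.83, 14.7 and 25.9 CPM on the WTD. The groups overlapped, with 14 of 16 WTD mice above the highest chow mouse. The fold change was 3.77 (log2 1.92, SE 0.30, edgeR adjusted p = 6.7e-07).

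Tlr4 (ENSMUSG00000039005, chr4:66827584-66930284), the endotoxin receptor, measured 0, 3.71 and 5.82 CPM on chow and 8.67, 12.3 and 26.8 CPM on the WTD. The groups did not overlap. The fold change was 4.07 (log2 2.02, SE 0.27, edgeR adjusted p = 1.8e-08).

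Tlr5 (ENSMUSG00000079164, chr1:182954788-182976044), the receptor for flagellin, measured 2.62, 8.36 and 12.8 CPM on chow and 1.53, 5.99 and 11.2 CPM on the WTD. The ranges overlapped widely, and 11 of 16 WTD mice were below the chow median. The log2 fold change was -0.24 (95% interval -0.72 to 0.23, edgeR adjusted p = 0.43).

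Among the endosomal receptors, Tlr7 and Tlr8 bind single-stranded RNA. Tlr7 (ENSMUSG00000044583, chrX:167304929-167330558) measured 0, 0.934 and 4.35 CPM on chow and 5.48, 9.30 and 20.1 CPM on the WTD. All WTD mice were above all chow mice. Its fold change was 5.86 (log2 2.55, SE 0.35, edgeR adjusted p = 2.6e-08), and with limma-voom the log2 value was 3.22.

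Tlr8 (ENSMUSG00000040522, chrX:167242696-167264329) was the weakest of the 10 genes, with 0, 0.558 and 1.92 CPM on chow and 0, 4.37 and 9.47 CPM on the WTD. It had 0 counts in 4 of 10 chow mice and in 1 of 16 WTD mice, and the groups overlapped. In those chow mice a floor of 3 counts corresponds to between 0.133 and 0.173 CPM, here without the TMM scaling used for the levels. The log2 fold change was 2.64 with a wide error (SE 0.62, edgeR adjusted p = 0.00041), and with limma-voom it was 3.25.

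Tlr13 (ENSMUSG00000033777, chrX:106143204-106160493), a receptor for bacterial ribosomal RNA in the mouse, measured 0, 2.10 and 4.86 CPM on chow and 9.00, 15.0 and 21.5 CPM on the WTD. The groups did not overlap. The fold change of 8.53 was the largest of the 10 genes (log2 3.09, SE 0.34, edgeR adjusted p = 1.2e-10).

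Tlr3 (ENSMUSG00000031639, chr8:45395665-45411080), the receptor for double-stranded RNA, measured 5.18, 9.97 and 14.9 CPM on chow and 7.01, 12.7 and 18.4 CPM on the WTD. The ranges overlapped, although 13 of 16 WTD mice were above the chow median. The log2 fold change was 0.31 (95% interval 0.01 to 0.62, unadjusted p = 0.044, edgeR adjusted p = 0.090). An antisense gene, Gm45542, shares 381 exon bases with Tlr3 and had 82 counts in all mice against 10631 for Tlr3, and the libraries were strand-specific.

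The co-receptors split. Cd14 (ENSMUSG00000051439, chr18:36725067-36726798) measured 0, 5.86 and 10.5 CPM on chow and 16.6, 46.7 and 55.6 CPM on the WTD. The groups did not overlap, and Cd14 was the most abundant of the 10 genes on the WTD. Its fold change was 8.29 (log2 3.05, SE 0.30, edgeR adjusted p = 2.7e-11).

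Ly96 (ENSMUSG00000025779, chr1:16688051-16709611) measured 0.0505, 4.61 and 8.88 CPM on chow and 0.472, 4.94 and 10.1 CPM on the WTD. The ranges overlapped almost fully. The log2 fold change was 0.06 (95% interval -0.63 to 0.75, edgeR adjusted p = 0.91), and without the 9 libraries it was -0.03.

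Of the 10 genes, 5 (Tlr2, Tlr4, Tlr7, Tlr13 and Cd14) had every WTD mouse above every chow mouse, which was so for 3.40% of all tested genes, against 17.5% called higher. In a setting added after the values were seen, which left out the 9 libraries, it was so for 7, with Tlr1 and Tlr8 as well, and for 8.51% of tested genes. The plot of fold changes shows the genes in 2 sets, the 7 that rose and the 3 with intervals near or across 0.

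**Figure D2:**
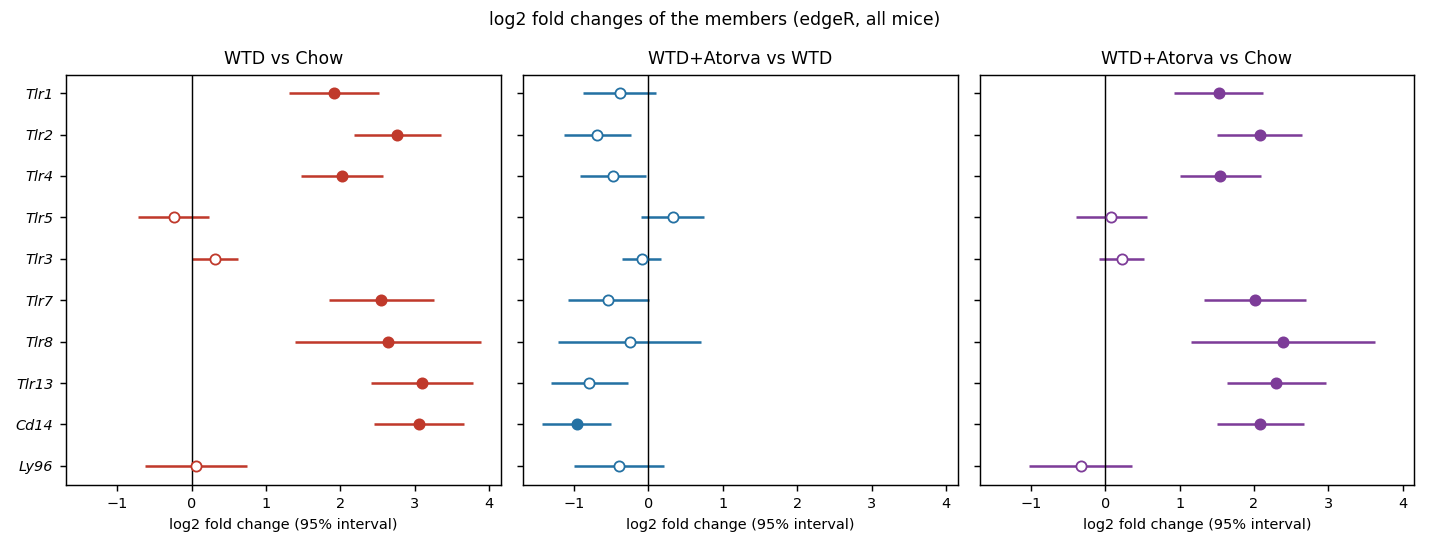
log2 fold change with its 95% interval (x axis) for each gene (y axis) in the 3 comparisons. Filled points passed an adjusted p under 0.01 in edgeR. On the WTD 7 genes are filled, and under atorvastatin relative to the WTD only Cd14 is.

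The second comparison asked how atorvastatin changed the receptors of WTD-fed mice. Cd14 was the only one of the 10 genes called, and it fell, against a background of 2.26% of tested genes called lower and 4.84% called higher. Without the 9 libraries 2 were called, against 1050 of 15799 tested genes called higher and 614 called lower. At an unadjusted p under 0.05, 4 of the 10 passed against 24.5% of tested genes, and 9 of 10 fold changes were below 0 against 49.8%. In the same comparison 2 of 6 macrophage markers and 1 of 5 cholangiocyte markers fell, 4 of 6 hepatocyte and 2 of 6 sinusoidal endothelium markers rose, and 1 Kupffer cell marker rose and 1 fell. No marker of monocytes, neutrophils, dendritic cells, B cells or T cells was called. Of 6 stellate cell markers 1 rose and 2 fell. The part of these cells in the fall of Cd14 was not tested, apart from the comparison with macrophage markers below. Cd14 measured 11.0, 20.9 and 39.1 CPM (lowest, median and highest) with atorvastatin, against 46.7 CPM at the median of the WTD group. All 16 treated mice were below the WTD median, and the ranges overlapped, with 1 WTD mouse at 16.6 CPM. Every treated mouse was below every WTD mouse without the 9 libraries, which was so for 0.0514% of tested genes. The log2 fold change was -0.97 (SE 0.23, edgeR adjusted p = 0.0027), a 1.95-fold lower level, and it passed in all 9 alternative fits that kept the gene, with adjusted p between 7.8e-09 and 0.0055, and in all 42 fits that left out 1 mouse.

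Tlr13 measured 3.15, 8.29 and 14.9 CPM with atorvastatin. All 16 treated mice were below the WTD median of 15.0 CPM. The log2 fold change was -0.79 (SE 0.26, edgeR adjusted p = 0.030, between 7.2e-05 and 0.034 in the alternative fits). Tlr2 measured 9.47, 18.6 and 32.3 CPM, and 15 of 16 treated mice were below the WTD median. Its log2 fold change was -0.69 (SE 0.22, edgeR adjusted p = 0.033, between 8e-05 and 0.046 in the alternative fits).

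Neither gene passed the threshold in all fits. Both were called in DESeq2, in limma-voom and in the fit of only the 2 groups, and Tlr2 also without the 9 libraries. The other receptors had log2 fold changes of -0.48 for Tlr4, -0.54 for Tlr7, -0.39 for Tlr1 and -0.25 for Tlr8, with edgeR adjusted p of 0.16, 0.21, 0.35 and 0.82, respectively. In limma-voom Tlr4 (log2 -0.41, adjusted p = 0.0072) and Tlr1 (log2 -0.56, adjusted p = 0.0026) were called too. Tlr4 measured 4.82, 9.88 and 14.5 CPM with atorvastatin, and 12 of 16 treated mice were below the WTD median. Tlr7 measured 4.81, 6.72 and 10.5 CPM, Tlr1 measured 6.65, 11.1 and 16.5 CPM, and Tlr8 measured 0, 3.67 and 6.92 CPM. Their ranges overlapped with the WTD group. Tlr5 (log2 0.32, 95% interval -0.09 to 0.74), Tlr3 (log2 -0.09, 95% interval -0.36 to 0.17) and Ly96 (log2 -0.39, 95% interval -0.998 to 0.216) did not pass. Tlr5 measured 4.81, 7.93 and 14.6 CPM, Tlr3 measured 9.39, 11.2 and 18.0 CPM, and Ly96 measured 0.450, 4.04 and 6.33 CPM.

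The third comparison set the treated mice against chow, which shares the chow mice with the first comparison and the treated mice with the second. The same 7 genes as on the WTD alone were called higher and 0 lower, against 14.2% of tested genes called higher and 10.7% called lower. The log2 fold changes were 2.39 for Tlr8, 2.30 for Tlr13, 2.09 for Cd14, 2.08 for Tlr2, 2.01 for Tlr7, 1.55 for Tlr4 and 1.53 for Tlr1. With limma-voom Tlr7 was at 2.79. All treated mice were above all chow mice for 3 genes, Tlr2, Tlr7 and Cd14, as was so for 2.88% of tested genes, and without the 9 libraries for 5 genes, with Tlr4 and Tlr13, and 4.67% of tested genes. Without them 7 genes were again called, against 2637 of 15799 tested genes called higher and 1944 called lower. For Tlr3, Tlr5 and Ly96 the log2 fold changes were 0.22, 0.08 and -0.33, with edgeR adjusted p of 0.27, 0.83 and 0.49.

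Compared per length, as CPM per kilobase of merged exons, the order of the genes changed with the diet. On chow the highest was Ly96, with 4.69 ± 2.26 (SD, n = 10), before Cd14 with 3.19 ± 1.77 and Tlr3 with 1.94 ± 0.580. The lowest was Tlr8 with 0.196 ± 0.208, and no neighbours in this order were further apart than their SDs. On the WTD the highest was Cd14, with 26.5 ± 5.17 (SD, n = 16), and the next was Tlr2 with 9.36 ± 3.06. Ly96 followed with 4.88 ± 2.05, and Tlr8 was last with 1.24 ± 0.641. With atorvastatin Cd14 was again first, with 13.6 ± 5.09 (SD, n = 16), before Tlr2 with 5.82 ± 1.87 and Ly96 with 3.72 ± 1.24. Cd14 and Tlr2 were the only neighbours further apart than their SDs in both groups fed the WTD.

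The parts of the endotoxin receptor were also compared with each other, as log2 ratios of CPM within each mouse, with 2-sided permutation tests of 100000 resamples adjusted over 12 tests. These ratios were chosen after the values of the genes had been seen. The ratio of Ly96 to Tlr4 was 0.49 ± 0.58 (SD, n = 10) on chow and -1.58 ± 0.76 (SD, n = 16) on the WTD. The difference was -2.08 (permutation test, adjusted p = 6e-05), and it was -2.001 without the 9 libraries. With atorvastatin the ratio was -1.43 ± 0.70, which differed from the WTD by 0.15 (permutation test, adjusted p = 0.70). The ratio of Cd14 to Tlr4 fell by 0.53 from the WTD to WTD + atorvastatin (permutation test, adjusted p = 0.020), and by 0.75 without the 9 libraries (permutation test, adjusted p = 0.00063). Between WTD and chow it differed by 1.17 (permutation test, adjusted p = 0.30) with all mice. Chow mouse 2 had 0 counts of Cd14, and chow mouse 5 had 0 counts of Tlr4 and 1 count of Ly96. Without the 9 libraries the difference was 1.21 (permutation test, adjusted p = 0.00024). For Tlr1 to Tlr2 and for Tlr8 to Tlr7 the adjusted p were between 0.14 and 0.98, with or without those libraries.

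**Figure D3:**
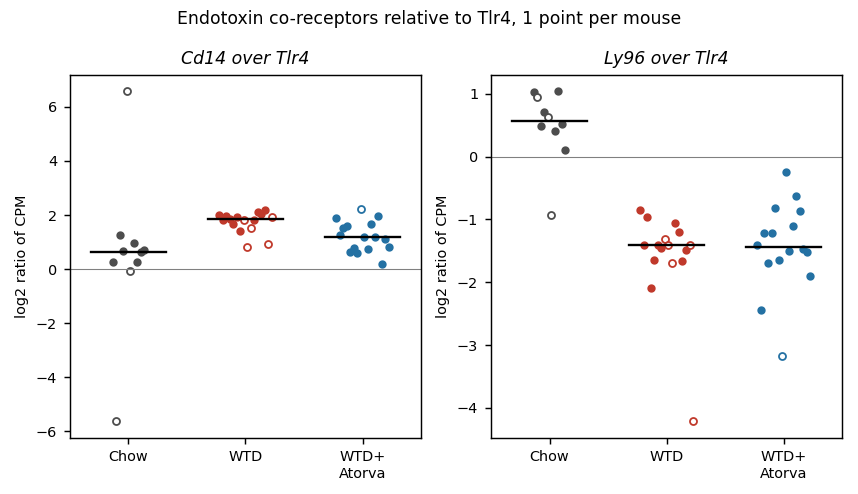
log2 ratio of the CPM of Cd14 to Tlr4 and of Ly96 to Tlr4 (y axis) in each mouse of the 3 groups (x axis). Bars are medians and open points are the 9 libraries that missed over 20% of weak genes. Except for 1 chow mouse, Ly96 over Tlr4 is above 0 on chow, and it is below 0 in all mice fed the WTD. The ratio above 0 in chow mouse 5 rests on 1 count of Ly96 and 0 counts of Tlr4.

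Each gene was then set against the mean log2 CPM of 6 macrophage markers (Adgre1, Csf1r, Cd68, Fcgr1, Mertk and Aif1), which was 2.02 higher on the WTD than on chow and 0.36 lower with atorvastatin than on the WTD. Relative to these markers, Tlr13 was higher on the WTD by 1.62, Cd14 by 1.53 and Tlr2 by 1.18 on the log2 scale (2-sided permutation tests of 100000 resamples, adjusted p = 0.0035, 0.00050 and 0.0035 over 30 tests). Tlr5 was lower by a difference of -2.29, Ly96 by -1.71 and Tlr3 by -1.68 (permutation tests, adjusted p = 7.5e-05, 0.0043 and 7.5e-05). These 3 genes were not called on the WTD themselves, with log2 fold changes of -0.24, 0.06 and 0.31. Their differences therefore restate the rise of the markers and show no fall of the genes. For Tlr1 and Tlr4 the differences were 0.21 and 0.36 (permutation tests, adjusted p = 0.81 and 0.68), and for Tlr7 and Tlr8 they were 1.06 and 1.04 (adjusted p = 0.050 and 0.19). Without the 9 libraries Tlr2 was higher than the markers by 0.52 and no longer passed (adjusted p = 0.015). Against Adgre1 alone Tlr13 (1.29, adjusted p = 0.020) and Tlr2 (0.85, adjusted p = 0.045) did not pass. Against 6 Kupffer cell markers Ly96 (-0.69, adjusted p = 0.25) and Tlr3 (-0.65, adjusted p = 0.064) did not pass, while Tlr4 (1.39, adjusted p = 0.0058) and Tlr7 (2.08, adjusted p = 0.0014) did. With a prior count of 0.5 Ly96 did not pass (-1.64, adjusted p = 0.014).

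With atorvastatin relative to the WTD, Cd14 was lower than the markers by a difference of -0.66 (permutation test, adjusted p = 0.00050). Tlr5 was higher by 0.74 (adjusted p = 0.0062), which did not pass without the 9 libraries (0.76, adjusted p = 0.015). Tlr13 differed by -0.47 (adjusted p = 0.021) and Tlr2 by -0.32 (adjusted p = 0.041).

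**Figure D4:**
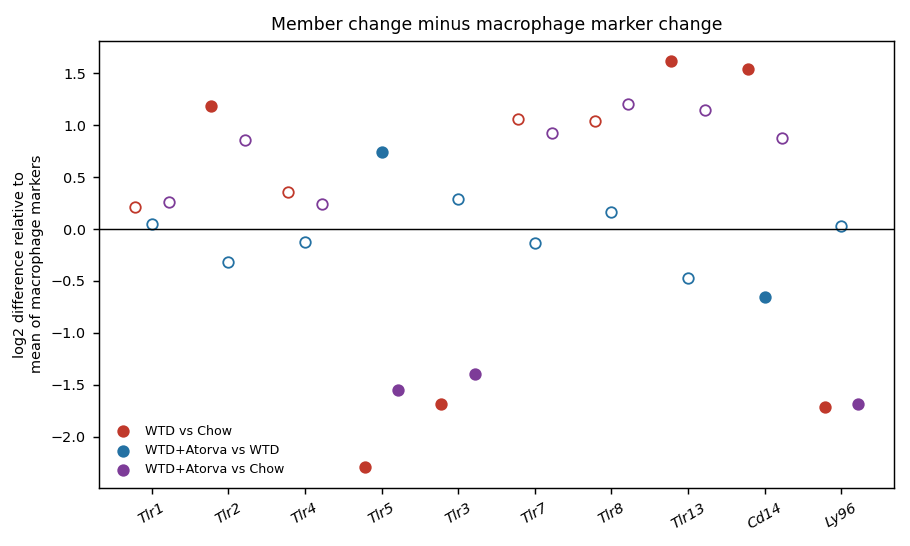
Difference between groups in the log2 CPM of each gene minus the mean log2 CPM of 6 macrophage markers (y axis) for the 10 genes (x axis) in the 3 comparisons. Filled points passed an adjusted p under 0.01 in permutation tests. Tlr2, Tlr13 and Cd14 lie above 0 and Tlr3, Tlr5 and Ly96 below it for WTD against chow. Tlr3, Tlr5 and Ly96 were not themselves called by edgeR in that comparison.

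Among mice of 1 group, the level of Cd14 followed the macrophage markers with atorvastatin (Pearson r 0.812, permutation p = 0.00013, adjusted p = 0.0039 over 30 relations, Spearman rho 0.774, permutation p = 0.00085, adjusted p = 0.020, n = 16 mice). Without the 2 mice farthest from the median of the markers r was 0.749. On the WTD r for Cd14 was 0.470 (permutation p = 0.067, adjusted p = 0.25, rho 0.235, n = 16 mice), and on chow it was -0.101 (n = 10 mice, permutation p = 0.79). Tlr1 had r of 0.735 on the WTD (permutation p = 0.0012, adjusted p = 0.012, rho 0.750) and 0.649 without the 2 farthest mice. Tlr2 had r of 0.730 with atorvastatin (permutation p = 0.0011, adjusted p = 0.012, rho 0.703) and 0.575 without them. Other genes that rose on the WTD had weaker relations there, with r of 0.085 for Tlr4, -0.197 for Tlr7, 0.183 for Tlr8 and -0.040 for Tlr13. Ly96 had r of 0.287 on the WTD. With atorvastatin r was 0.485 for Tlr4, 0.417 for Tlr7, 0.321 for Tlr8, 0.490 for Tlr13 and -0.019 for Ly96. The adjusted p of these relations (permutation tests) were between 0.25 and 0.95. Tlr3 and Tlr5 had r between -0.241 and 0.366 in the 3 groups.

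The genes whose log2 CPM varied most like each receptor after removal of the group means, over 42 mice, depended on the 9 libraries. For Cd14 they were Cyp4f16, Galc and Atf3, with r of 0.920, 0.920 and 0.915, and for Tlr13 they were Skil, Osmr and Tes, with r of 0.792, 0.790 and 0.786. Of these, Atf3 and Skil were also among the 3 most alike over the other 33 mice, with r of 0.799 and 0.711. For the other genes no name was shared between both sets of mice. Over 42 mice they were Arhgap9, Adamts14 and Inpp5d for Tlr1, Fbxw7, Trim47 and Apobr for Tlr2, and Pvt1, Tpgs2 and Tmprss2 for Tlr4, with r between 0.875 and 0.947. They were Lynx1, Cpne8 and Socs5 for Tlr7, Adamts4, Prrt1 and Gnai1 for Tlr8, and Alkbh4, Pde7a and Zmat3 for Ly96, with r between 0.761 and 0.894. For Tlr5 they were 1810055G02Rik, mt-Nd5 and Gm8325 and for Tlr3 they were Vrk1, Frk and Ccnt1, with r between 0.649 and 0.730. The libraries differ in depth and in the share of weak genes without a count, and these likenesses are descriptions.

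Other genes of the pathway were counted in lists, which were chosen with earlier results of these data known. Their counts on the WTD stand against 17.5% of all tested genes called higher and 16% called lower. The genes named are the 3 of smallest p in each list on the WTD, and with atorvastatin those called. Of 6 other Toll-like receptors and relatives, 5 rose on the WTD and 0 fell, with a median log2 fold change of 2.07. Cd180, a receptor relative of B cells and macrophages, rose by 2.30 (SE 0.15) and its partner Ly86 by 2.39 (SE 0.21), and Tlr12 rose by 0.52 (SE 0.13), with edgeR adjusted p of 1.7e-18, 5.2e-13 and 0.00082. Cd180 overlaps Mast4 on the opposite strand. With atorvastatin Cd180 fell by 0.44 on the log2 scale (SE 0.12, edgeR adjusted p = 0.0073), the only one called of the 6. Cd180 did not pass without the 9 libraries (-0.32, adjusted p = 0.019), and Ly86 did (-0.56, adjusted p = 0.00077).

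Of 6 genes for ligand handling and receptor folding, 2 rose on the WTD and 1 fell, with a median log2 fold change of 0.13. Unc93b1, which carries the endosomal receptors to their compartment, rose by 1.10 (SE 0.08, edgeR adjusted p = 7.4e-16) and Cd36, a lipid scavenger receptor, by 0.43 (SE 0.07). The chaperone Hsp90b1 fell by 0.43 on the log2 scale (SE 0.12). Of 5 tested adaptors, 1 rose and 1 fell. Pik3ap1 rose by 1.60 (SE 0.15), and Tirap, which bridges Tlr2 and Tlr4 to Myd88, fell by 0.52 (SE 0.11, and -0.30 with adjusted p = 0.014 without the 9 libraries, where it did not pass) and rose with atorvastatin by 0.42 (SE 0.10, edgeR adjusted p = 0.0020). Ticam2 had a log2 fold change of 2.37 (SE 0.85, edgeR adjusted p = 0.020) and did not pass. It had 0 counts in 7 of 10 chow mice. Ticam2 shares 838 exon bases on the same strand with Tmed7, which had 82692 counts in all mice against 961 for Ticam2. Myd88 and Irf8 had 0 counts in all mice and were not in the tests. Each lies inside another annotated gene of the same strand, with 0 shared exon bases. The cause of the 0 counts was not tested.

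Of 16 kinases and ubiquitin ligases, 3 rose on the WTD and 1 fell, which is close to the share of all genes called higher. Irak3, an inhibitory kinase of the pathway, rose by 2.56 (SE 0.47) and Ikbke by 0.54 (SE 0.09), and Chuk, a kinase of the NF-kappaB pathway, fell by 0.72 (SE 0.08) and rose with atorvastatin by 0.33 (SE 0.07, edgeR adjusted p = 0.0012). Of 10 tested transcription factors, 7 rose and 1 fell. By p the first were Relb (log2 1.93, SE 0.16), Nfkb2 (log2 1.17, SE 0.13) and Nfkb1 (log2 0.58, SE 0.08). Of 10 feedback inhibitors, 5 rose and 0 fell, with 3.12 (SE 0.30) for Tnfaip3, an enzyme that edits ubiquitin in the pathway, 1.03 (SE 0.11) for Tnip1 and 1.31 (SE 0.21) for Nfkbie. Of 12 tested inflammatory targets, 4 rose, among them Ccl2, a monocyte chemokine (log2 2.44, SE 0.29), Acod1, which makes itaconate (log2 4.71, SE 0.66), and Cxcl2, a neutrophil chemokine (log2 3.61, SE 0.81). When the 9 libraries were left out, 7 of these targets rose (with Cxcl1, Nos2 and Tnf as well), 4 kinases rose and 2 fell (with Traf3 higher and Irak1 lower as well), and Sigirr was 1 feedback inhibitor that fell. The counts of transcription factors and of ligand handling genes were as before.

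With atorvastatin relative to the WTD, 0 of the 12 targets were called by edgeR, 0 by DESeq2 and 1 by limma-voom, with 1 at an unadjusted p under 0.05 in edgeR. Of all tested genes edgeR called 4.84% higher and 2.26% lower, and 24.5% had an unadjusted p under 0.05. DESeq2 called 706 higher and 689 lower of 14579, and limma-voom 1835 and 1310 of 15574. Ccl2 had a log2 fold change of -0.62 (edgeR adjusted p = 0.056). Nfkb2 fell by 0.43 on the log2 scale (SE 0.11, edgeR adjusted p = 0.0043) and Tnip1 by 0.40 (SE 0.09, edgeR adjusted p = 0.0017). When the 9 libraries were left out, Relb (-0.47, adjusted p = 0.0020), Nfkbie (-0.56, adjusted p = 0.0020) and Irak3 (-0.96, adjusted p = 0.0072) were called lower too. The medians of these lists are set beside a median log2 fold change of 0.03 over all tested genes on the WTD, and no list was tested as a set.

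**Figure D5:**
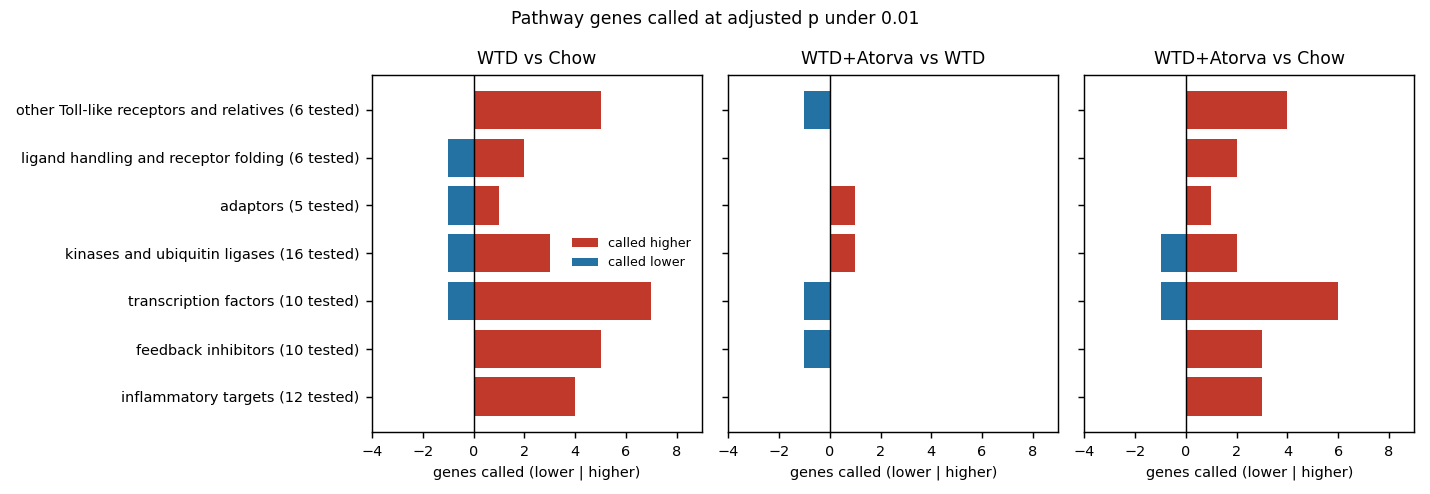
Number of genes called higher (right of 0) and lower (left of 0) at an adjusted p under 0.01 in edgeR (x axis) in each list of pathway genes (y axis) and comparison. On the WTD 7 of 10 transcription factors and 5 of 10 feedback inhibitors were called higher.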

How the data were processed

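Livers of 42 mice were measured by strand-specific RNA sequencing, and the authors trimmed the reads, aligned them (STAR, build GRCm38) and used HTSeq for gene totals. The deposited unit is therefore the raw count. Per the submitters' processing notes the versions were STAR 2.5 and HTSeq 0.6.1p1. The authors annotated genes with GENCODE vM19, and here symbols, positions and lengths came from vM21 of the same build. The table of all mice was identical to the 42 single tables, and summary lines of HTSeq were left out.

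Weakly counted genes were removed by filterByExpr, whose limits were 10 for a mouse and 15 in total. After TMM scaling, edgeR 4.0.16 (R 4.3.3) fitted all 42 mice by robust quasi-likelihood with no covariates, and genes were called at a Benjamini-Hochberg adjusted p under 0.01 over all tested genes. CPM use TMM-scaled library sizes, except for the floors of 3 counts and the choice of the 9 libraries, which use unscaled gene counts. log2 CPM had a prior count of 2. The edgeR script was tested on simulated data. Alternatives were DESeq2 1.42.0, limma 3.58.1, other scalings, filters and thresholds, and leaving out mice. Ratios and correlations used permutation tests of 100000 resamples in Python 3.11.15, for which the smallest p is 1e-05. Mice were grouped by the submitters' treatment labels. Depth was 15661381 to 36224054 gene counts, and floors of 3 counts cover counting error only. The members and lists were chosen with earlier results of these data known. The rule for named genes took the 10 members, the 3 genes of smallest p in each list and comparison and the 3 genes most alike to each member. Of the list genes the text gives those of the pathway lists on the WTD and those called with atorvastatin.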

Additional observations from a re-analysis of the deposited data

Results flagged for a closer look

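Of the 10 genes, 1 had a chow mouse that stood apart from the other 9 by a test of the gap to its nearest neighbour over the range. Tlr13 had 4.86 CPM in the highest chow mouse, which was chow mouse 6, 1 of the 9 libraries that missed many weak genes, with a gap of 0.498 of the range. About 1 in 20 groups is picked out by chance, and 10 groups of values were examined, those of the chow mice. The groups fed the WTD were not examined in this way. On the WTD, Cd14 was 16.6 CPM in mouse 15, 1 of the 9 libraries, and 39.8 CPM in the next lowest mouse.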

How the results depend on the processing

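No paired analysis was possible because the mouse numbers name different animals in each group. For WTD against chow and for WTD + atorvastatin against chow, 7 members were called under every alternative except the filter of at least 10 counts in every mouse, which kept only Tlr3 and Tlr5 and called 0 in all 3 comparisons. For WTD against chow, 3578 of 15574 tested genes were called higher at an adjusted p under 0.05, and 1610 with a required absolute log2 fold change of 1. For WTD + atorvastatin against chow these numbers were 3034 and 1055. For WTD + atorvastatin against WTD the count of 1 became 3 at an adjusted p under 0.05, 3 with DESeq2, 5 with limma-voom, 3 with only the 2 groups, 2 without the 9 libraries and 0 with a required absolute log2 fold change of 1, and leaving out 1 mouse gave 1 to 3, with 3 only without chow mouse 2. Over all tested genes the main fit called 754 higher and 352 lower of 15574 in that comparison. These numbers were 1283 and 738 at an adjusted p under 0.05, and 1835 and 1310 with limma-voom. DESeq2 called 706 and 689 of 14579, and the fit of only the 2 groups called 719 and 642 of 14595. Without the 9 libraries they were 1050 and 614 of 15799, and with the required log2 fold change 66 and 34. The cause of these changes was not tested. Leaving out 1 mouse kept 7 to 7 in the other comparisons. Only values of small size changed sign. Tlr5 against chow with atorvastatin was -0.056 without the 9 libraries and ranged from -0.021 (without chow mouse 2) to 0.18 when 1 mouse was left out, and Ly96 on the WTD against chow was -0.028 without the 9 libraries and ranged from -0.092 (without chow mouse 5; -0.042 without WTD mouse 9) to 0.20 when 1 mouse was left out. Relative to the macrophage markers, the count for atorvastatin against WTD went from 2 to 1 with Adgre1 alone, with Kupffer cell markers and without the 9 libraries, and against chow from 3 to 5 without them. Against Kupffer cell markers, Tlr5, Tlr3 and Ly96 no longer passed for atorvastatin against chow (permutation tests, adjusted p = 0.03, 0.021 and 0.089). Tlr2, Tlr7, Tlr13 and Cd14 passed there instead, higher than those markers by 1.60, 1.66, 1.88 and 1.62 (adjusted p = 0.00065, 0.0033, 0.0009 and 0.00065). With Adgre1 alone, Tlr1 changed sign to -0.12 and -0.11 (WTD and atorvastatin against chow), Tlr4 to -0.14 (atorvastatin against chow) and Ly96 to -0.021 (atorvastatin against WTD). With Kupffer cell markers, for atorvastatin against WTD, Tlr1 changed to -0.24, Tlr3 to -0.0039, Tlr8 to -0.12 and Ly96 to -0.26. Without the 9 libraries, Tlr1 changed to -0.0084, -0.14 and -0.15 and Tlr4 to -0.059, 0.039 and -0.0199 in the 3 comparisons in turn. Of 639 list counts 98 moved by more than 1.5 times under an alternative, 24 of them with the required log2 fold change, 17 with limma-voom and 13 without the 9 libraries, and 40 of 2268 did when 1 mouse was left out. Per length, Tlr4 and Ly96 were higher by more than 1 SD when the longest transcript was used in 5 of 90 values. Tlr8 had 0 counts in 6 mice, the most of the 10 genes.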
